A study of Oryza sativa Japonica Group with 6 samples.

Results

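Kinesins are motor proteins that use ATP to walk along microtubules or to take microtubule ends apart. Plants have many of them. They build the mitotic spindle, guide the phragmoplast that lays down the new cell plate, and in growing cells help to place cellulose and organelles. In rice, several kinesin genes were first found through dwarf, brittle or small-grained mutants. The transcripts of 33 kinesin genes are described here in developing seeds of rice (Oryza sativa Japonica Group). A gene was taken when its symbol or a synonym was KIN followed by a number and an optional letter, and when a probe set of the Affymetrix rice array mapped to it alone. KIN17, which is not a kinesin, was left out. The 33 genes are among 17905 genes that had such a probe set. Where a gene had several, the probe set with the highest mean over all 6 arrays was used. Probe sets were thus selected on their mean level, which is therefore given without a test. Of 36 kinesin names in the gene table, KIN12F, KIN14D and KIN14P had no probe set of their own and were not analysed here. Subfamily 14 held 14 members, subfamily 7 held 7, subfamily 10 held 3, subfamilies 5, 12 and 13 held 2 each, and subfamilies 1, 4 and 8 held 1 each.

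The series asked how extra nitrogen fertilizer changes expression in the seed. In the group called additional NH4Cl, 400 mg of ammonium chloride per container was sprayed on the soil at heading, and 3 arrays were made from seeds that the labels place at 15 days after flowering. The control group also had 3 arrays, its plants received no such dose, and the labels used here give no day of sampling for it. Plants of both groups had been fertilized at planting and 37 days after germination. They were grown at 28°C by day and 22°C by night, with 12 h of light. Seeds came from 6 plants in all, and tissue was pooled for extraction. The labels call the replicates biological without saying which plants they came from, so a p-value here reflects how these samples vary, and part of that variation may be technical.

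Values in the deposited table, taken to be on a log2 scale, ran from 4.96 to 13.51. Differences between arrays were very small in this table: across arrays, rice probe sets had a median SD of 2.2e-06, and 97.4% of probe sets had an SD under 0.001. Differences are therefore given in deposited units, not as fold changes, and beside them as multiples of that probe set's own within-group SD. The label of developing seed was checked by level. The 7 starchy endosperm markers had means from 9.879 to 13.21, the 4 embryo and aleurone markers from 9.295 to 12.83, and the 4 markers of green tissue from 6.031 to 11.37. The mean level of the endosperm markers was 12.18807 to 12.18924 with additional NH4Cl and 12.19191 to 12.19336 in control. Of the 7 markers 4 were higher and 3 lower. The starch synthase gene SSI had a difference of -0.0289 and the others ran from -1e-06 to 2.92e-06. The lower mean level of the set thus rests on SSI. The green tissue markers had mean levels of 8.76352 to 8.76447 with additional NH4Cl and 8.76305 to 8.76398 in control, with 4 of 4 higher. The embryo and aleurone markers had 11.63971 to 11.64832 and 11.64124 to 11.64555, with 3 of 4 higher. The part of these shifts in the kinesin values was not tested. In whole seeds, fewer cells of a type and less RNA per cell cannot be told apart.

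Kinesin genes covered a wide range of levels. The median of the 33 means was 6.082, against 5.72 over all rice probe sets. The brightest of 64 reporter control probe sets, which match genes foreign to rice, had a mean of 6.07, and 17 of the 33 members lay above it, as did 33.1% of all rice probe sets. The signal of the other 16 need not come from their own RNA.

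KIN13B, of the kinesin-13 subfamily whose animal members take microtubule ends apart, was the brightest at 9.53, above 98.3% of rice probe sets. KIN7K at 8.41, KIN7D at 8.06 and KIN4A at 7.91 followed, then KIN13A at 7.70 and KIN14L at 7.61. KIN13A is known in rice as SRS3, a gene for seed length. At the other end KIN14B had a mean of 5.24 and lay above 3.9% of rice probe sets. KIN13B was measured with a probe set that can hybridize with several transcripts, as were KIN1, KIN8B and KIN14K, and these 4 are uncertain.

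**Figure D1:**
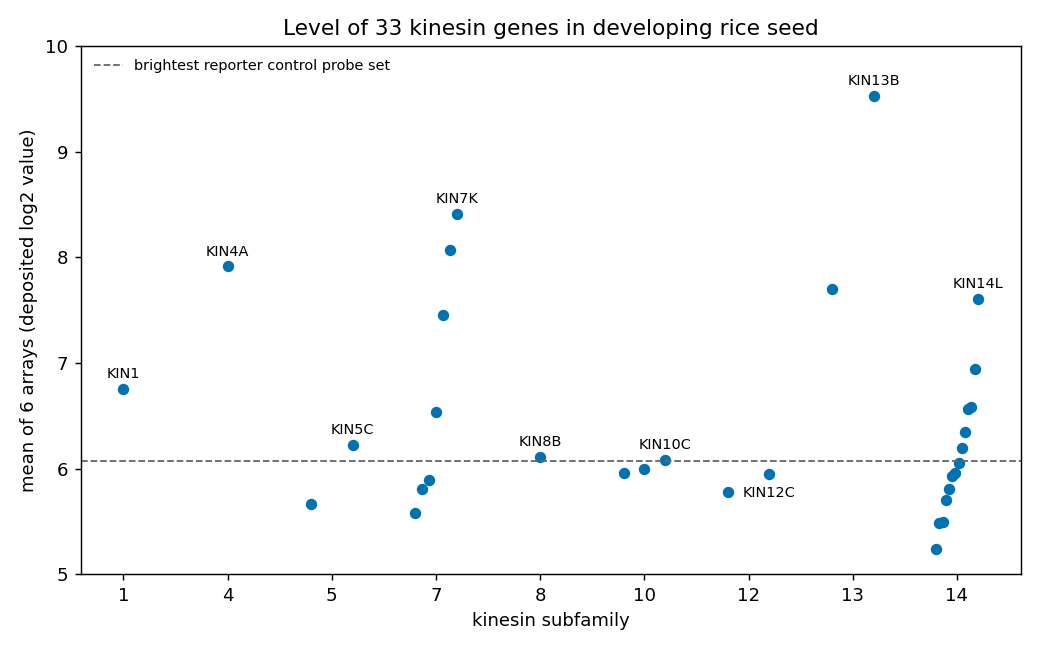
Mean deposited log2 value over 6 arrays (vertical axis) of 33 kinesin genes, drawn by subfamily (horizontal axis), with the brightest member of each named. The dashed line is the brightest reporter control probe set at 6.07, and 17 members lie above it, led by KIN13B at 9.53.

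As deposited, 28 of the 33 kinesin genes (84.8%) had a lower mean with additional NH4Cl than in control and 5 a higher one. Over all rice probe sets 49.6% were lower and 50.4% higher. After quantile normalization 21 kinesin genes were lower, 10 higher and 2 without a difference, beside 38.3%, 39.7% and 22.0% of all probe sets. Centring each array on its median, which adds 0.000123 to every difference, left 9 kinesin genes lower and made 24 higher, beside 4.41% and 95.6% of all probe sets. The median difference was -1.62e-05 as deposited, or -1.78 within-group SDs, and 0.0101 within-group SDs over all rice probe sets. The member with the largest difference was KIN8B at -0.0128, and the highest positive one was KIN14B at 9.61e-07.

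No kinesin gene passed limma's test after Benjamini-Hochberg adjustment over 57194 rice probe sets, a test that called 0.00699% of them, and the members' adjusted p ran from 0.156 to 0.988. At an unadjusted p under 0.05, 11 of the 33 (33.3%) were lower, where 5.96% of all probe sets were, and 0 were higher, where 5.09% were. A test with unequal variances also called 0 after adjustment and put 7 members lower at an unadjusted p under 0.05. The count of 11 was 6 without control replicate 1 and 7 without control replicate 3. For these other fits the share of all rice probe sets at that p was not counted, so their counts have no background here. The 28 lower members became 28 or 29 when any single array was left out.

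In 15 of the 33 (45.5%) every additional NH4Cl array lay below every control array, and in 0 every one lay above. Over all rice probe sets these shares were 8.99% and 8.42%. Among the 17 members above the brightest reporter 16 were lower, beside 51.1% of the 18940 rice probe sets above that level. At an unadjusted p under 0.05, 7 of the 17 (41.2%) were lower and 0 higher, beside 10.2% and 8.12% of those probe sets. The groups did not overlap in 10 of the 17 (58.8%), all lower, beside 13% of them lower and 11% higher. Among the 16 dimmer members 12 (75%) were lower and 5 (31.2%) did not overlap, all lower. Of the rice probe sets not above that level 48.8% were lower and 7.01% lower without overlap. Without the 4 uncertain probe sets 25 of 29 were lower and 13 did not overlap, and without KIN1, the one kinesin-1, 27 of 32 were lower. Over all rice probe sets 49.6% were lower and 8.99% lower without overlap.

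Array by array, 28 members were below their own mean on additional NH4Cl replicate 1, 23 on replicate 2 and 22 on replicate 3. In the control group 4 were below it on replicate 1, 9 on replicate 2 and 7 on replicate 3. Over all rice probe sets the share below the own mean ran from 48.1% to 52% across the 6 arrays. Additional NH4Cl replicate 1 held the lowest value of 11 members, replicate 2 of 7 and replicate 3 of 10. Over all rice probe sets these arrays held the lowest value of 19.9%, 14.5% and 18.2%. Control replicate 1 held the highest value of 14 members, for which the share of all rice probe sets was not counted.

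**Figure D2:**
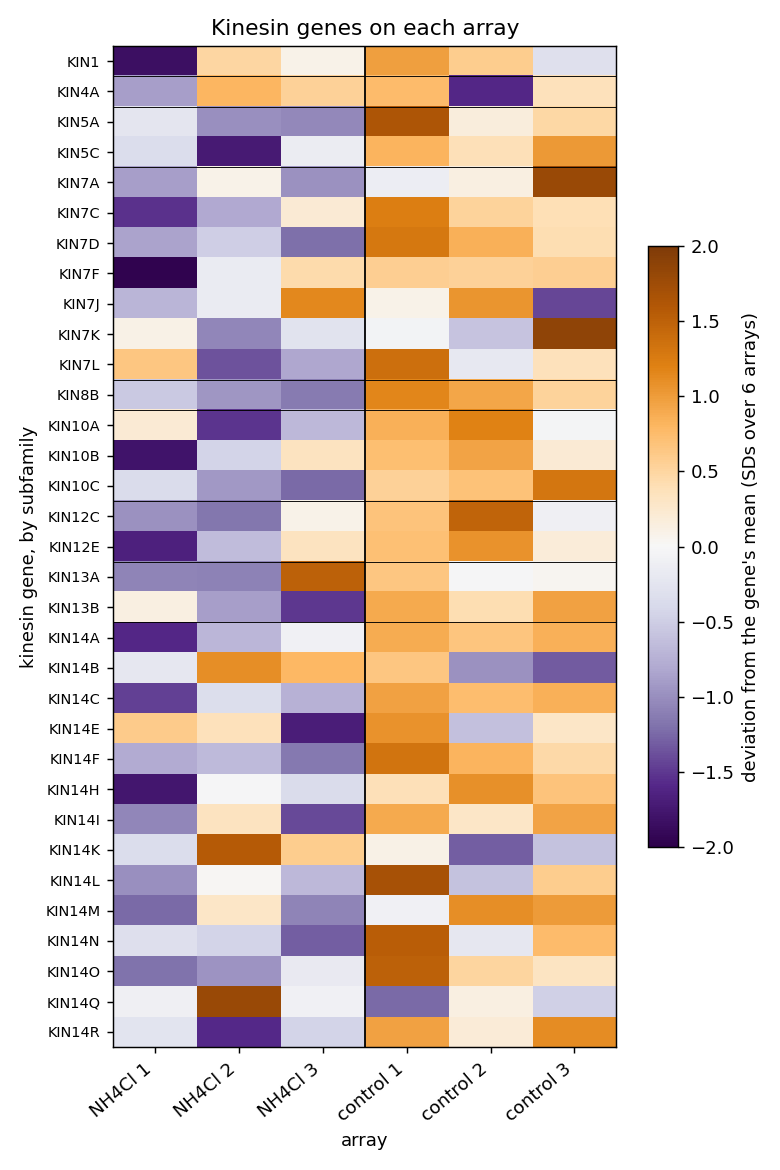
Deviation of each kinesin gene (rows, by subfamily) from its own mean on each of 6 arrays (columns), in SDs over the 6 arrays; purple is lower and orange higher. Most rows are purple in the additional NH4Cl columns, and 28 of the 33 means are lower there as deposited (21 after quantile normalization and 9 after median centring).

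**Figure D3:**
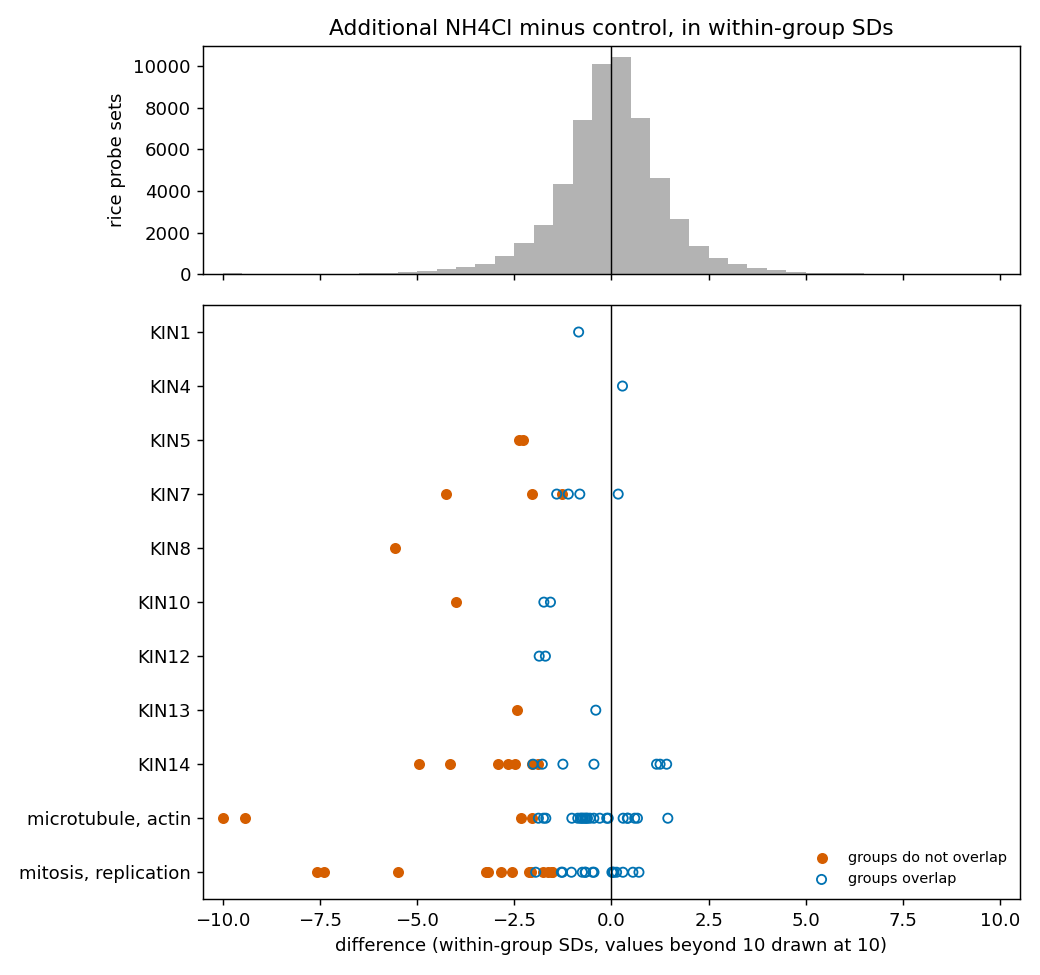
Additional NH4Cl minus control in within-group SDs (horizontal axis) for all rice probe sets (upper panel, number per bin) and for each kinesin subfamily and both comparison lists (lower panel, 1 point per gene, as deposited). Filled points are genes whose groups do not overlap, and among kinesins all 15 of these lie left of 0 (their direction after other scalings is in the plot of differences under 3 scalings).

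KIN8B is the one kinesin-8 among the members described here, and kinesin-8 motors in yeast and animals keep microtubules short from their plus ends. Its values were 6.1050, 6.1020 and 6.1007 with additional NH4Cl and 6.1175, 6.1158 and 6.1128 in control. The groups stood clearly apart, with a gap wider than the range of either. The difference was -0.0128 (SE 0.00187, n = 3 per group; -5.58 within-group SDs, limma adjusted p = 0.156). KIN8B stayed lower under the 13 alternatives that kept its probe set, with limma or unequal-variance adjusted p from 0.00759 to 0.501. It passed after quantile normalization (-0.0129, limma adjusted p = 0.0298) and after median centring (-0.0127, limma adjusted p = 0.00759). These scalings called 7.13% and 89.8% of all rice probe sets, 3.49% and 1.49% as lower. The KIN8B values rest on an uncertain probe set just above the brightest reporter. The other probe set of the gene, at a mean of 5.17, had a difference of -9.87e-07 and overlapping groups. With both probe sets averaged the difference was -0.0064. KIN14K, also with several probe sets, had differences of -3.23e-06 and -1.56e-07 on those not used, and -1e-06 with all averaged.

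Subfamily 7 holds the motors of cell plate expansion and relatives of the animal centromere motor CENP-E. As deposited, 6 of its 7 members were lower (49.6% of all rice probe sets) and 3 lower without overlap (8.99% of all). KIN7D stood at 8.06359, 8.06379 and 8.06339 with additional NH4Cl and at 8.06479, 8.06454 and 8.06430 in control. No array of one group reached the other. Its difference was -0.000959 (SE 0.000184, -4.26 SDs, limma adjusted p = 0.201), with limma adjusted p = 0.0282 after quantile normalization and 0.00759 after median centring. Over the alternatives the limma or unequal-variance adjusted p ran from 0.00759 to 0.511. Quantile normalization called 3.49% of all rice probe sets lower, and centring called 1.49% lower and 89.8% in all.

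KIN7C had the widest difference of the subfamily. Its values were 7.44811, 7.44885 and 7.44987 with additional NH4Cl, and 7.45088, 7.45017 and 7.45006 in control. The groups did not overlap, though additional NH4Cl replicate 3 came close to control, and the difference was -0.00143 (SE 0.000571; -2.04 SDs, limma adjusted p = 0.459).

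KIN7K, the brightest of subfamily 7, overlapped between groups. It stood at 8.41223, 8.41099 and 8.41184 with additional NH4Cl and at 8.41207, 8.41149 and 8.41413 in control. Control replicate 3 alone was high, and without it the difference of -0.000878 (SE 0.000879, limma adjusted p = 0.822) shrank to -9.65e-05. KIN7F was the third member whose groups did not overlap, by a narrow margin, with a difference of -0.000112 that turned positive (1.06e-05) after median centring. KIN7A, the rice NACK motor whose tobacco and Arabidopsis counterparts drive cell plate growth, lay at a level of 5.58, under the brightest reporter, with a difference of -3.61e-07. KIN7L stood at -1.39e-06 and KIN7J at 4.52e-07, both also under the reporter. KIN7J was negative without additional NH4Cl replicate 3 (-7.84e-07) or control replicate 3 (-1.11e-06).

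**Figure D4:**
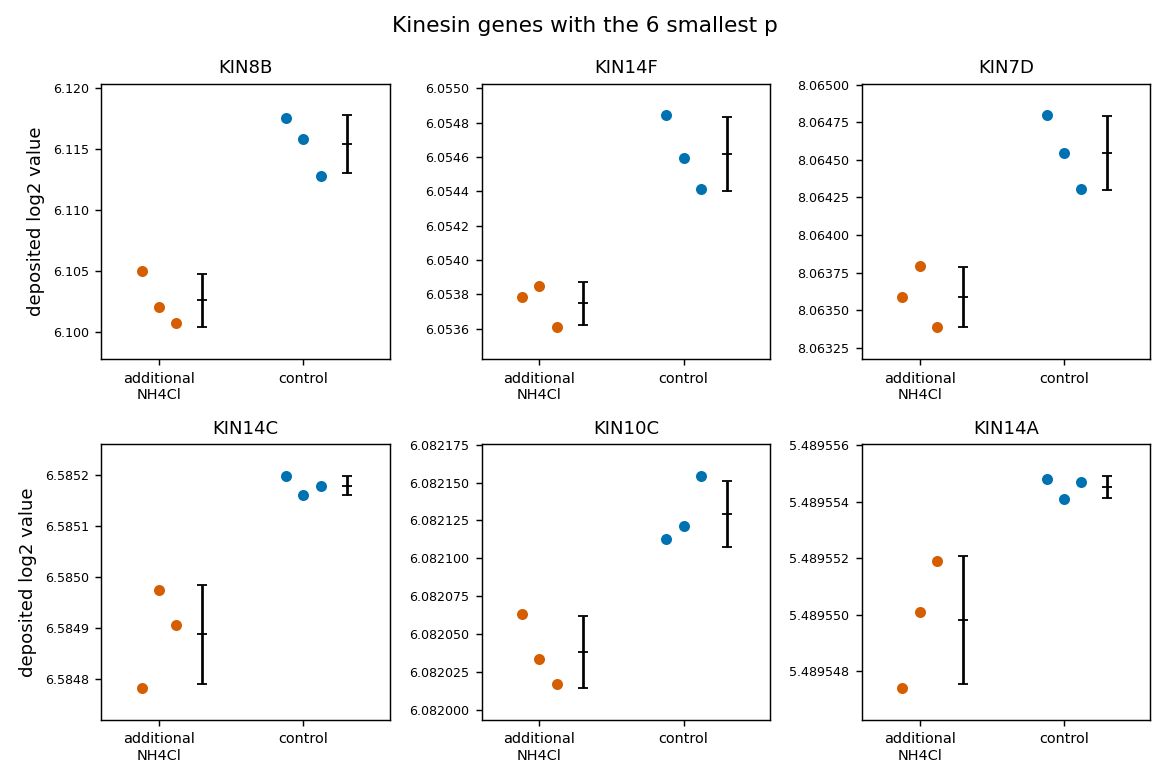
Deposited log2 value (vertical axes, each with its own narrow range that does not start at 0) on the 3 additional NH4Cl and 3 control arrays for the kinesin genes with the 6 smallest p; bars show mean and SD. In each gene all 3 additional NH4Cl arrays lie below all 3 control arrays as deposited; KIN10C and KIN14A had positive differences after median centring, and KIN14A also after quantile normalization.

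Subfamily 14, the motors that move toward the minus end of microtubules and that are unusually numerous in land plants, had 11 of 14 members lower as deposited (49.6% of all rice probe sets) and 7 lower without overlap (8.99% of all). KIN14F stood at 6.05378, 6.05385 and 6.05361 with additional NH4Cl and at 6.05484, 6.05460 and 6.05441 in control. The gap between the groups exceeded the range within either. Its difference was -0.000871 (SE 0.000144; -4.95 SDs, limma adjusted p = 0.171). The gene passed after quantile normalization (-0.00111, limma adjusted p = 0.0454), where 3.49% of all rice probe sets were called lower. It also passed after median centring (-0.000748, limma adjusted p = 0.00759), where 1.49% were called lower and 89.8% in all. Over the alternatives its limma or unequal-variance adjusted p ran from 0.00759 to 0.516. With a mean of 6.05 KIN14F lay just under the brightest reporter.

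KIN14C gave 6.58478, 6.58497 and 6.58491 with additional NH4Cl and 6.58520, 6.58516 and 6.58518 in control. The control arrays lay close together and above all others, with a difference of -0.000292 (SE 5.74e-05; -4.16 SDs, limma adjusted p = 0.204). It stayed lower after quantile normalization (-0.000305) and after median centring (-0.00017).

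KIN14O had the largest difference of the subfamily, -0.00124 (SE 0.000381; -2.65 SDs, limma adjusted p = 0.348). Its arrays read 6.94108, 6.94127 and 6.94189 with additional NH4Cl, and 6.94323, 6.94244 and 6.94229 in control. Again no array crossed over, and the difference stayed negative after quantile normalization (-0.000855) and median centring (-0.00111).

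KIN14A, at a level of 5.49 and so under the reporter, had values of 5.4895474, 5.4895501 and 5.4895519 with additional NH4Cl and 5.4895548, 5.4895541 and 5.4895547 in control. Its groups did not overlap, but the difference of -4.75e-06 (SE 1.32e-06; -2.93 SDs, limma adjusted p = 0.316) turned positive after quantile normalization and median centring. KIN14L, the brightest of the subfamily, stood at 7.6065535, 7.6065633 and 7.6065566 with additional NH4Cl and at 7.6065794, 7.6065573 and 7.6065688 in control. Its groups overlapped, and its difference of -1.07e-05 (SE 7.01e-06, limma adjusted p = 0.674) also turned positive under both scalings.

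Among the other members of subfamily 14, KIN14R at -6.01e-06, KIN14H at -9.12e-06 and KIN14N at -5.1e-06 were lower without overlap. All of them turned positive after median centring, and KIN14R also after quantile normalization, where it passed limma's adjusted threshold as higher (2.84e-05), as did 3.64% of all probe sets. KIN14R and KIN14H lay under the brightest reporter. KIN14I, the calmodulin-binding motor KCBP known for trichome shape in Arabidopsis, stood at -9.58e-05 with overlapping groups. KIN14Q, the rice KCH1 motor that binds actin as well as microtubules, was at 2e-07 and a level of 5.50. KIN14B (9.61e-07) and KIN14K (3.79e-07) were the other higher members of the subfamily as deposited, and all 3 lay under the brightest reporter. KIN14E and KIN14M had differences of -1.8e-05 and -1.62e-05 with overlapping groups, and KIN14E was positive (9.02e-06) without additional NH4Cl replicate 3. KIN14M also lay under the brightest reporter.

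Both kinesin-5 genes, whose relatives in animals push spindle poles apart, were lower as deposited without overlap, as were 8.99% of all rice probe sets. KIN5C stood at 6.2235108, 6.2234954 and 6.2235130 with additional NH4Cl and at 6.2235237, 6.2235189 and 6.2235261 in control. Additional NH4Cl replicate 2 was the lowest array. The difference was -1.65e-05 (SE 5.95e-06; -2.27 SDs, limma adjusted p = 0.413), positive after quantile normalization and median centring.

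KIN5A, at a level of 5.66 under the reporter, had 5.6605596, 5.6605585 and 5.6605584 with additional NH4Cl and 5.6605624, 5.6605602 and 5.6605607 in control. The margin between the groups was under 1.15e-06, the SD of the control arrays. Its difference was -2.25e-06 (SE 7.69e-07; -2.39 SDs, limma adjusted p = 0.404), positive after median centring.

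All 3 kinesin-10 genes were lower as deposited and after quantile normalization, and positive after median centring. Over all rice probe sets these shares were 49.6%, 38.3% and 95.6%. KIN10C stood at 6.082063, 6.082034 and 6.082017 with additional NH4Cl and at 6.082113, 6.082121 and 6.082154 in control. Its groups were separate, with a difference of -9.14e-05 (SE 1.86e-05; -4 SDs, limma adjusted p = 0.213). KIN10A, which rice genetics knows as the dwarf gene STD1 with a part in cell division, was at -9.99e-06 and KIN10B at -2.28e-06. Groups overlapped in both, and both lay under the brightest reporter.

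The kinesin-12 subfamily includes Arabidopsis motors that organise the phragmoplast and mark the division plane. Both rice members described here lay under the brightest reporter. KIN12C stood at 5.952463, 5.952454 and 5.952518 with additional NH4Cl and at 5.952549, 5.952589 and 5.952508 in control. KIN12E read 5.773931, 5.773937 and 5.773943 with additional NH4Cl and 5.773945, 5.773947 and 5.773942 in control. In each gene control replicate 3 lay below additional NH4Cl replicate 3, and no other control array lay below any additional NH4Cl array. The differences were -7.05e-05 (-1.86 SDs, limma adjusted p = 0.496) and -7.91e-06 (-1.7 SDs, limma adjusted p = 0.54). Median centring made both positive, and KIN12E was also positive after quantile normalization.

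KIN13B gave 9.52511, 9.52445 and 9.52404 with additional NH4Cl and 9.52562, 9.52530 and 9.52566 in control. Its groups did not overlap, with a difference of -0.000994 (SE 0.000333; -2.44 SDs, limma adjusted p = 0.382) that stayed negative after both scalings, on an uncertain probe set. KIN13A stood at 7.69576, 7.69576 and 7.69600 with additional NH4Cl and at 7.69592, 7.69586 and 7.69587 in control. Additional NH4Cl replicate 3 was the highest array and the other 2 were the lowest. The difference was -4.13e-05 (SE 8.34e-05, limma adjusted p = 0.943), positive under both scalings, and the gene's other probe set read 0.00012. It was -1.29e-06 without additional NH4Cl replicate 1, -2.43e-07 without replicate 2 and -0.000122 without replicate 3.

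KIN4A, also called GDD1, is a kinesin-4 known in rice for cellulose orientation and stem strength. Its values were 7.9139234, 7.9139242 and 7.9139240 with additional NH4Cl and 7.9139241, 7.9139231 and 7.9139240 in control. The groups overlapped, with a difference of 1.39e-07 (SE 4.02e-07; 0.283 SDs, limma adjusted p = 0.976), and without additional NH4Cl replicate 2 or control replicate 2 it was negative (-5.17e-09 and -1.85e-07). KIN4A was thus the one member above the brightest reporter that was not lower as deposited. KIN1, or PSS1, a kinesin-1 needed for male meiosis in rice, read 6.75167, 6.75215 and 6.75207 with additional NH4Cl and 6.75225, 6.75217 and 6.75199 in control. Additional NH4Cl replicate 1 was low and the rest overlapped, so that without it the difference of -0.000172 (SE 0.000167, limma adjusted p = 0.812) shrank to -2.71e-05.

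**Figure D5:**
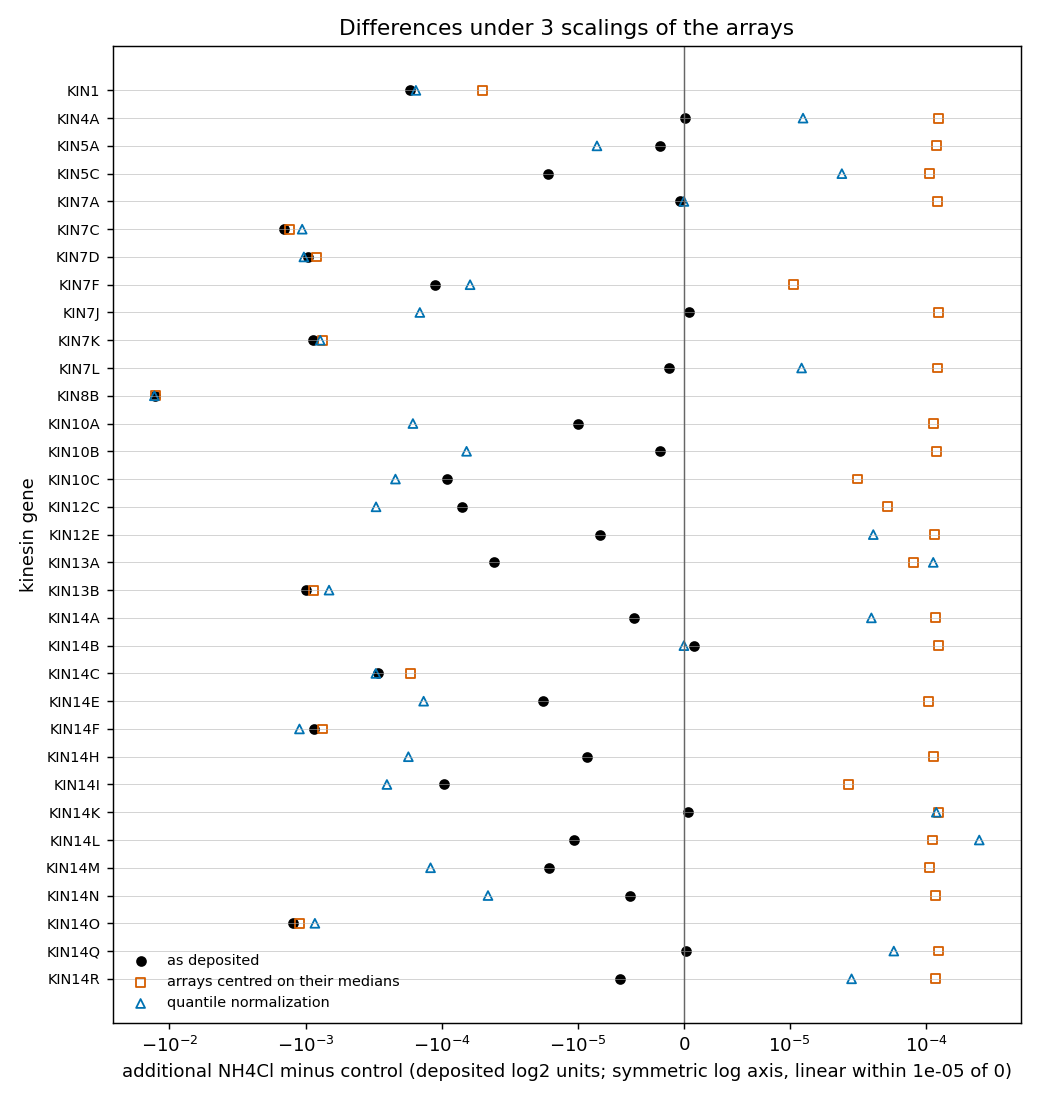
Additional NH4Cl minus control for 33 kinesin genes (rows) in deposited log2 units on a symmetric log axis, as deposited (filled circles), after centring arrays on their medians (squares) and after quantile normalization (triangles). Members with a wide difference, such as KIN8B at -0.0128, keep their place, while members within 0.000123 of 0 cross to the right when arrays are centred.

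Centring adds the same amount to every member, so those with a wider negative difference kept their sign. The 9 members that stayed lower were KIN1, KIN7C, KIN7D, KIN7K, KIN8B, KIN13B, KIN14C, KIN14F and KIN14O. Of these, 7 passed limma's adjusted threshold after centring (all but KIN1 and KIN7K), beside 1.49% of all probe sets called lower there, and 18 other members passed as higher, beside 88.3%, or 25 in all beside 89.8%. After quantile normalization KIN7D, KIN8B and KIN14F passed as lower (3.49% of all probe sets) and KIN14K and KIN14R as higher (3.64%), or 5 in all beside 7.13%.

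Kinesins act on tubulin, so 26 genes of tubulins, actins, formins and the microtubule-associated protein MOR1 were set beside them. As deposited 20 of the 26 were lower, beside 49.6% of all rice probe sets and 51.1% of those above the brightest reporter. The median was -0.666 within-group SDs, while quantile normalization gave -0.81 and median centring 1.05. None passed limma's adjusted threshold or that of the test with unequal variances, 3 were lower at an unadjusted p under 0.05 and 0 higher. The 3 are 11.5% of the list, and 22 of its 26 genes lay above the brightest reporter, where 10.2% of rice probe sets were lower at that p and 13% were lower without overlap. The groups did not overlap in 4 (15.4%), all lower, so both lower shares were near that background. The 0 higher at that p and 0 higher without overlap stand beside 8.12% and 11% of the same probe sets. The median of the list was -0.149 without additional NH4Cl replicate 1 and -1.49 without additional NH4Cl replicate 3. Of 11 tubulins, the subunits of microtubules, 7 were lower, with a median of -0.304 within-group SDs, and TUBB1 was the one at an unadjusted p under 0.05 (difference -0.000519, limma adjusted p = 0.399). TubA, an alpha-tubulin and the brightest gene of the list at 11.18, stood at -0.00154 with overlapping groups.

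All 4 actins were lower as deposited, beside 49.6% of all rice probe sets. ACT2 had values of 9.0871, 9.0742 and 9.0657 with additional NH4Cl and 9.1719, 9.1781 and 9.1755 in control. Its groups were far apart for this table, with a difference of -0.0995 (SE 0.00649; -12.5 SDs, limma adjusted p = 0.0804). The brighter ACT7 and ACT1 stood at -8.49e-05 and -1.96e-05 with overlapping groups. Among 10 formins, which nucleate actin filaments, 8 were lower, led by FH16 at -0.0209 (-9.43 SDs, limma adjusted p = 0.101).

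Genes of dividing cells were the second list, with 21 replication genes and 8 mitotic cyclins and B-type CDKs. As deposited 22 of the 29 were lower, with a median of -1.29 within-group SDs (-0.413 after quantile normalization and 3.6 after median centring, where 0 were lower). None passed limma's adjusted threshold or that of the test with unequal variances, 8 were lower at an unadjusted p under 0.05, 0 were higher, and 13 (44.8%) did not overlap, all lower. Over all rice probe sets 49.6% were lower, 5.96% were lower at that p and 8.99% lower without overlap. Another 5.09% of them were higher at that p and 8.42% higher without overlap. Of the 29 genes, 10 lay above the brightest reporter. The replication genes had a median of -1.54 within-group SDs and the mitotic genes, the closest partners of spindle kinesins, one of -0.715. PCNA, the replication clamp, stood at -1.73e-05 (-7.4 SDs, limma adjusted p = 0.121). RPA32C, of the single-strand binding complex, was at -7.1e-06 (-7.57 SDs, limma adjusted p = 0.121). The cyclin CYCA3-2 was at -2.23e-05 (-5.5 SDs, limma adjusted p = 0.16). Each of these genes was positive after median centring, and RPA32C and CYCA3-2 lay under the brightest reporter. RPA14 and RPA70A, with the highest levels beside PCNA, had differences of -3.22e-05 and 1.16e-06.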

How the data were processed

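Seed RNA from 6 samples was hybridized, 1 sample per array, to Affymetrix rice arrays (57381 probe sets). Per the labels' protocols, total RNA was extracted with a column kit and labelled with biotin; the extraction text names seedlings where the tissue label names developing seed. The authors deposited a table of processed values, read here as log2 from its range; no source used here names its log base, background correction, summarization or normalization. The number of arrays limits the precision. Genes came from the platform annotation and a RefSeq gene table of assembly ASM3414082v1: 22436 rice probe sets had 1 gene, 95 several, and 34663 are unnamed here. The 187 control probe sets were left out.

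Additional NH4Cl was compared with control by limma (version 3.58.1, under R 4.3.3). The test was a linear model with eBayes, two-sided, Benjamini-Hochberg adjusted over 57194 rice probe sets at 0.05, with no filter. It was also run on simulated data with shifts far wider than any kinesin difference. That run does not show its power for differences of the size given here. SEs are not moderated. Within-group SDs are pooled over both groups. Alternatives were a replicate block, trended and robust eBayes, unequal variances, quantile normalization, median centring, a filter on dim probe sets, removal of probe sets with suffix _x_at or _s_at, the mean of a gene's probe sets, and each array left out. Values per array are given for the member of each subfamily with the highest mean, that with the largest difference, up to 3 with the smallest p under 0.05, and all members of subfamilies of 2 or fewer; in the comparison lists, the 3 highest means and up to 3 smallest p were named. Other members were named after their values were seen. The members and lists were chosen with earlier results of these data known.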

Additional observations from a re-analysis of the deposited data

How the results depend on the processing

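Over all rice probe sets, 4 passed the adjusted threshold as deposited, 2 with trended and robust eBayes, 0 with unequal variances, 32 without dim probe sets, 4079 after quantile normalization, 51354 after median centring and 0 to 1 with an array left out. The 33 kinesin genes had 5 past the threshold after quantile normalization and 25 after centring, beside 7.13% and 89.8% of all rice probe sets. Under centring 9 were lower, 7 at an unadjusted p under 0.05, and the median was 3.06 within-group SDs. The count at an unadjusted p under 0.05 was 7 with unequal variances and 6 to 13 with an array left out. The share of all rice probe sets at that p was not counted under these settings or under centring. With an array left out 28 to 29 kinesin genes stayed lower with medians of -2.09 to -1.54. Of the 26 microtubule and actin genes 3 passed after quantile normalization and 16 after centring, beside the same 7.13% and 89.8%. Without dim probe sets 1 of 22 passed, beside 32 of 28597 rice probe sets. After centring 8 of the list were lower and its median was 1.05. That median ran from -1.49 to -0.149 with an array left out. Of the 29 mitosis and replication genes 4 passed after quantile normalization, with a median of -0.413, beside 7.13% of all rice probe sets. After centring 27 passed, beside 89.8%, with 0 lower and a median of 3.6. The median kinesin level was 6.054 with a gene's probe sets averaged.

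Signs turned after centring for 19 kinesin genes. Of those given by array, these were KIN5A (0.00012), KIN5C (0.000106), KIN10C (3.12e-05), KIN12C (5.21e-05), KIN12E (0.000115), KIN13A (8.13e-05), KIN14A (0.000118) and KIN14L (0.000112). After quantile normalization 8 turned, of which 3 (KIN7J, KIN7L and KIN14R) are not given by array and the others were KIN5C (2.41e-05), KIN12E (4.1e-05), KIN13A (0.000113), KIN14A (3.97e-05) and KIN14L (0.000246). With probe sets averaged KIN13A (3.94e-05) and KIN14K turned. KIN4A ran from -1.85e-07 to 3.7e-07 with an array left out. The sign changes under centring follow from the constant it adds; for the others the cause was not tested.

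Same-numbered arrays of the groups had deviations correlated at -0.0616, 0.0449 and -0.0775, so the numbers were not taken to pair them. With the replicate number as a block 2 rice probe sets passed, and 28 kinesin genes were lower, with a median of -1.56. Of these, 12 were at an unadjusted p under 0.05, for which the share of all rice probe sets was not counted. The median of all rice differences as deposited was 5.67e-09, and centring added 0.000123 to each. After it 95.6% of all rice probe sets were higher, and the 28 lower kinesin genes became 9. That change follows from the constant added. No source used here says which scaling fits the values.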
